A study of Mus musculus with 2 samples.

Results

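The 2000 highest distal regions of open chromatin in left cerebral cortex were described across 2 DNase-seq libraries. They were chosen by their peak heights in both libraries, out of 27984 distal regions. Overlapping peaks of the shorter peak list of each library were merged into 83423 regions, and 48886 of these held a peak from both libraries. A region was distal when its centre lay over 1 kb from every annotated GENCODE transcript start, and the other 20902 shared regions are called promoter regions. Distal regions were ranked by height within each library, the ranks were averaged, and the best 2000 were kept. Below, the highest region of a kind is the one of best averaged rank, which need not be the highest in either library. The other 25984 distal regions serve as the comparison. Because height chose the members, heights are given as a description with no test.

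Each library came from the left cerebral cortex of a female mouse, 36 days old, 1 library per animal, called replicate 1 and replicate 2 as the labels number them. The strain is B6CASTF1/J, a first-generation cross of a B6 and a CAST parent, so each animal carries a CAST copy of every autosome that the mm10 reference (GRCm38) does not represent. The labels number the animals 05 and 06 and give both the same donor entry. The libraries are treated here as coming from 2 animals, which rests on that numbering. There is 1 group, with no treatment, and whole tissue was used, so more cells with an open region and a more open region per cell cannot be told apart. Peaks in the shorter lists numbered 69208 (replicate 1) and 69128 (replicate 2). Read totals are unknown. The heights come in steps of 0.00608 (replicate 1) and 0.00561 (replicate 2), with every value under 1 within 0.05 of a whole number of steps. The lowest height of a member was worth 495 and 304 steps. Intervals on shares are 95% Wilson intervals. They cover counting error over regions only and say nothing about other mice.

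DNase I cuts DNA where nucleosomes are displaced, so its peaks mark promoters, enhancers, insulators and other protein-bound sites. Away from gene starts, strongly cut sites are known to include binding sites of CTCF, a zinc finger protein that stops cohesin and marks the borders of chromatin loops. They also include CpG-rich stretches that escape DNA methylation, and genes of RNA polymerase III such as tRNA genes, whose promoter (an A box and a B box) lies inside the gene. Enhancers of neurons and glia are also distal and are bound by factors such as AP-1, neurogenic bHLH proteins and homeodomain proteins.

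The 3 kinds of sequence that recur among the members are shown first, each from the highest members that are not mostly multicopy sequence and not exonic. The sequences are from the mm10 reference, on the strand named, and capitals mark the CTCF match. The first lies at chr7:73618481-73618560 (minus strand) in an intergenic region 76711 bp from the nearest protein-coding start, that of the chromatin remodeller gene Chd2. The second lies at chr10:84438170-84438249 (minus strand) in an intron of the kinase gene Nuak1. The third lies at chr4:151141687-151141766 (minus strand) in an intron of the transcription activator gene Camta1. The kinds overlap. The region of the first match is also CpG-rich, as defined below, which holds for 38 of the 515 members with a CTCF match.
CTCF match, Chd2: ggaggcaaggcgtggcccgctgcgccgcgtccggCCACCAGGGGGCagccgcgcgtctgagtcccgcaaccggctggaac
CTCF match, Nuak1: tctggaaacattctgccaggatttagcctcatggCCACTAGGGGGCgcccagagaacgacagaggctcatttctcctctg
CTCF match, Camta1: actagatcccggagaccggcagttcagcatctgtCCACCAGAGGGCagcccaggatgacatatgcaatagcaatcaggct
All 3 matches were overlapped by a footprint, a short stretch protected from cutting, in both mice. The regions around them had heights of 13.6, 11.6 and 14.35 in replicate 1 and 7.09, 6.04 and 5.39 in replicate 2, so the region in Camta1 stood above the one near Chd2 in replicate 1 and below it in replicate 2.

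The highest CpG-rich member without multicopy sequence, a tRNA gene or a CTCF match is shown over the 200 bp around its centre, chr1:86487491-86487690 (plus strand), with every CpG in capitals.
CpG-rich, Ptma: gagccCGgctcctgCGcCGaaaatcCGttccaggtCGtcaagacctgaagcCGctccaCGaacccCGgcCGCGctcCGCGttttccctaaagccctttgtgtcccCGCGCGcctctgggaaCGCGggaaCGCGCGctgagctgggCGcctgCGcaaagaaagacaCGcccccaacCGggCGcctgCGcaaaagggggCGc
It holds 27 CpGs, is intergenic, and lies 39135 bp from the start of the nearest protein-coding gene, the prothymosin gene Ptma. Its heights were 14.9 in replicate 1 and 8.87 in replicate 2.

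For tRNA genes, the highest pair of non-exonic members with a B box match inside a single tRNA gene is shown as whole genes, with the B box match in capitals. The tRNA-Leu gene lies at chr8:94704004-94704086 (minus strand) and the tRNA-Thr gene at chr7:35234770-35234843 (minus strand), both intergenic. The region over the tRNA-Thr gene lies 57 bp from a start known to RefSeq but not used by the rule (Gm38989). The regions over both genes are also CpG-rich, as are 47 of the 79 members over a tRNA gene.
tRNA-Leu: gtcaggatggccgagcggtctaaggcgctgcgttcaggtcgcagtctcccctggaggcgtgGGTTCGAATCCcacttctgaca
tRNA-Thr: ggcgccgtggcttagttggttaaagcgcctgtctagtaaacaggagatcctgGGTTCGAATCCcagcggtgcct
Heights over these genes were 13.9 and 11.8 in replicate 1 and 7.02 and 6.49 in replicate 2, and a footprint overlapped each B box in both mice. In these regions 30% and 16.9% of 32-base words recur elsewhere in the genome, and the part of other copies in these heights was not tested.

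A pair of promoter-type motifs completes the set, with the match in capitals. The CRE match, the palindrome TGACGTCA bound by CREB and ATF factors, lies at chr19:53314294-53314373 (plus strand) in an intron of Mxi1, a gene whose product opposes MYC. The match to the motif of NRF1, an activator of nuclear genes for mitochondria, lies at chr5:142367363-142367442 (plus strand), in intergenic sequence 34046 bp from the start of Foxk1. The regions around both matches are CpG-rich. The first region lies 1275 bp from a start of Mxi1. The second lies 1781 bp from a RefSeq start that the rule did not use, that of Gm31068.
CRE match, Mxi1: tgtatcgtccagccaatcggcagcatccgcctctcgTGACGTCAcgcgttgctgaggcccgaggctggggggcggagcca
NRF1 match, Foxk1: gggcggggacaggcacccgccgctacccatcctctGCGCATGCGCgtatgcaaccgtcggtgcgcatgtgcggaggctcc
The Mxi1 region had heights of 13 and 8.51 in replicate 1 and replicate 2, and the region near Foxk1 had 14.9 and 7.41. A footprint overlapped both matches in both mice.

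Member heights ran from 3.01 to 53.8 in replicate 1, with a median of 5.31, and from 1.71 to 32.9 in replicate 2, with a median of 2.63. The other distal regions had medians of 1.19 and 0.926, and promoter regions medians of 2.41 and 1.73. High distal regions were few among high regions of any kind. Among the 100 regions of best average rank over all shared regions 13 were distal, and among the best 1000 there were 68. Of the best 10000, 2119 (21.2%) were distal, against 57.2% of all shared regions. The 3 members just inside the limit had heights of 4.43, 4.67 and 4.41 in replicate 1 and 1.92, 1.87 and 1.93 in replicate 2. The 3 regions just outside had 4.96, 5.58 and 5.10 in replicate 1 and 1.82, 1.76 and 1.81 in replicate 2, so the limit separates averages of ranks and not heights.

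Among regions called in both mice, the library not used for ranking gives a view of how far the choice depends on 1 mouse. Regions with a peak in only 1 library were left out beforehand, so these counts do not cover them. The 2000 highest of a library are 7.15% of the 27984 distal regions ranked. Of the 2000 highest distal regions of replicate 1 alone, 1237 (61.9%) were also among the 2000 highest of replicate 2, and 1739 were among its 4000 highest. Of those chosen in replicate 2 alone, 1234 (61.7%) were among the 2000 highest of replicate 1, and 1636 among its 4000 highest. None of the first set and 1 of the second fell into the lower part of the other library's order, below its median. Regions chosen in replicate 1 alone had a median height of 2.42 in replicate 2, where the remaining distal regions had 0.926. Regions chosen in replicate 2 alone had a median of 4.86 in replicate 1, against 1.19.

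**Figure D1:**
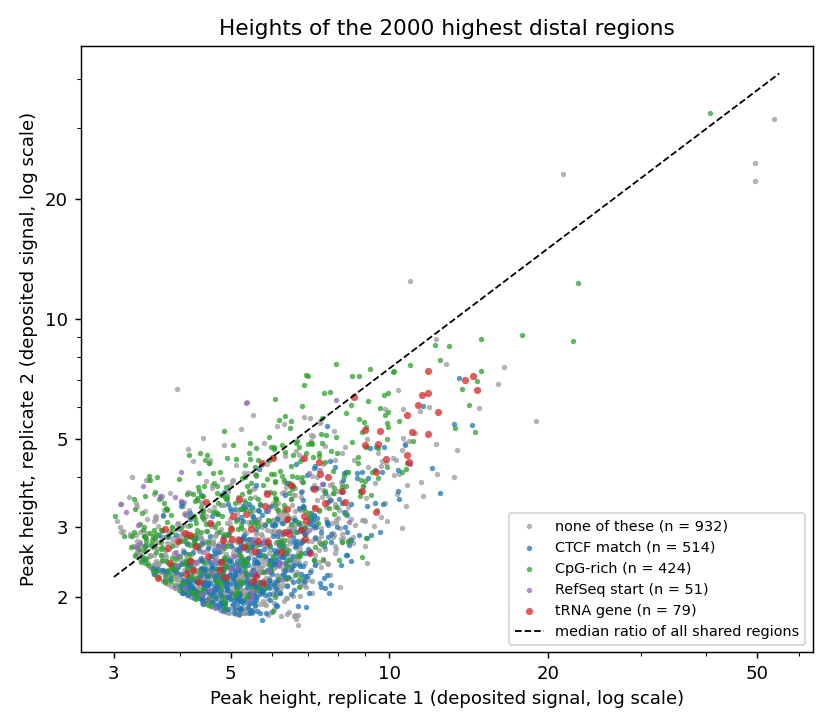
Peak height of each of the 2000 members in replicate 1 (x axis) and replicate 2 (y axis), both in the deposited signal unit on log scales, with 1 point per region coloured by class and a dashed line at the median ratio of all shared regions. Most points lie below the line, the 79 regions over tRNA genes and the 514 with a CTCF match included, and the curved lower left edge is the limit on the averaged rank.

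A CTCF match was the most frequent of the 25 motifs searched in the members. The search required every letter of the pattern, on both strands, in the 200 bp around a region's centre, and a match is a description of the sequence, not a measured binding site. It found CTCF in 515 of 2000 members (25.8%, interval 23.9% to 27.7%). The share was 11.3% (10.9% to 11.7%) in the other distal regions and 2.24% (2.05% to 2.45%) in promoter regions, and these intervals do not overlap. Allowing 1 mismatch, a setting added after the data were seen, gave 56.8% of members and 29.4% of the other distal regions. The match lay within 25 bp of the centre in 442 of the 515 members (85.8%) and in 85.2% of the other distal regions with a match. A footprint overlapped the match, by at least 1 base, in both mice in 513 of the 515 members (99.6%). The share was 97.1% in the other distal regions with a match. On the plus strand of the reference lay 258 of the 515 matches, and 12 members held more than 1. Matches were spread over positions, with 28.8% of intronic, 24.1% of intergenic and 22.3% of exonic members holding one. Of all 3448 distal regions with a CTCF match, 14.9% were members, against 7.15% of all distal regions.

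CpG-rich sequence, defined here as a GC share of at least 0.5 and a CpG observed/expected ratio of at least 0.6 over 200 bp, was found in 508 members (25.4%, interval 23.5% to 27.4%). The other distal regions had 7.38% (7.07% to 7.71%) and promoter regions 68.8% (68.2% to 69.4%). Mean GC content was 55.7% ± 6.94 in the members, 52.2% ± 6.22 in the other distal regions and 63.6% ± 8.67 in promoter regions (SD over regions). Of the 508 CpG-rich members, 320 (63.0%) were intergenic, against 45.0% of the 1918 other CpG-rich distal regions. Starts known to RefSeq but not used by the rule lay within 1 kb of 80 CpG-rich members (15.8%), against 14.1% of the other CpG-rich distal regions, and those intervals overlap. A GENCODE start lay between 1 and 2 kb away in 119 (23.4%), against 24.7% of the other CpG-rich distal regions, again with overlapping intervals. A CTCF match was held by 38 CpG-rich members (7.48%), against 3.02% of the other CpG-rich distal regions.

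RNA polymerase III genes formed a small class with a large share of its distal regions among the members. RefSeq lists 403 tRNA genes on chromosomes 1 to 19, X and Y, and the GENCODE starts used by the rule include none of tRNA type. Members overlapped a tRNA gene in 79 cases (3.95%, interval 3.18% to 4.90%), against 75 of 25984 other distal regions (0.289%, 0.230% to 0.362%) and 54 of 20902 promoter regions (0.258%). Of the 154 distal regions over a tRNA gene, 51.3% were members, as were 33 of 59 distal regions with a B box match (55.9%). The 79 regions cover 80 tRNA genes of 20 amino acid types, most often tRNA-Glu and tRNA-Leu (8 members each) and tRNA-Arg (7). Chromosome 11 held 21 of them and chromosome 13 held 16, and 51 of the 79 lay within 10 kb of another, so neighbouring genes of a cluster are not independent cases. An exact B box match stood in 32 of the 79. Their median heights were 6.39 in replicate 1 and 3.23 in replicate 2. The one of best averaged rank was an intergenic region at chr11:58302461-58302720 over a tRNA-Leu gene, 4478 bp from the GENCODE start of Zfp692. It lay 22 bp from a RefSeq start that the rule did not use, that of Gm39827. Its heights were 14.4 and 7.16, and another region over a tRNA gene was higher in each library.

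For most motifs the members and the other distal regions could not be separated. Of the 25 motifs, 8 had a member interval above that of the other distal regions, 4 had one below it, and 13 had overlapping intervals. Above were, besides CTCF and the tRNA B box (1.65% against 0.100%), 6 motifs. CRE was matched in 1.70% of members against 0.420% of the other distal regions, and EGR, the motif of activity-induced zinc fingers, in 1.60% against 0.639%. The SP and KLF motif of GC-box factors was matched in 3.45% against 1.36%, and NRF1 in 0.55% against 0.131%. ETS (CCGGAAGT) was matched in 1.25% against 0.289%, and ZNF143 in 0.55% against 0.100%. For each of these 6 the share in promoter regions was higher still, at 2.30%, 4.81%, 12.8%, 1.31%, 4.35% and 1.83%. For CRE the intervals of members (1.22% to 2.37%) and promoter regions (2.11% to 2.51%) overlapped.

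Below the other distal regions lay 4 motifs of enhancer factors. AP-1, the motif of Fos and Jun dimers, was matched in 76 members (3.80%, interval 3.05% to 4.73%) against 8.70% (8.36% to 9.05%). CAGATGG, a motif of neurogenic bHLH factors, was matched in 8.50% against 12.5%, and CAGCTG, bound by class I and proneural bHLH factors, in 16.1% against 20.4%. The homeobox core TAATTA was matched in 1.40% against 2.93%. Matches of AP-1 and CAGCTG can overlap those of other motifs and each was counted on its own. A footprint overlapped an AP-1 match in both mice in 21 of 76 members (27.6%). In the other distal regions with a match the share was 16.2%, and both lay far below CTCF. For CAGATGG those shares were 70.6% and 43.6%. Footprints also filled more of a member, with a median of 91.0 bases against 43.0 in the other distal regions in replicate 1. What share of such overlaps footprint density alone would give was not computed. No member matched REST, the repressor of neuronal genes, which by the limit of 3 counts for a count of 0 allows a share of up to 0.150%, and 10 other distal regions did. With CpG-rich regions and regions over tRNA genes left out, 32.7% of the remaining 1460 members and 12% of 24001 other distal regions matched CTCF, and AP-1 stood at 4.04% and 9.07%. EGR then stood at 0.343% and 0.358%, NRF1 at 0.137% and 0.0875%, and ETS at 0.480% and 0.258%, with overlapping intervals. Intervals also overlapped for CRE, at 0.822% and 0.408%, and for the SP and KLF motif, at 1.51% and 1.05%. ZNF143 kept separate intervals, at 0.411% (0.188% to 0.894%) and 0.1% (0.0672% to 0.149%). With CTCF matches left out as well, the CRE intervals did not overlap. CRE then stood at 1.22% (0.700% to 2.12%) of 983 members, 12 regions, against 0.445% (0.364% to 0.544%). Intervals for EGR, NRF1, ETS and the SP and KLF motif still overlapped, and those for ZNF143 stayed separate.

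**Figure D2:**
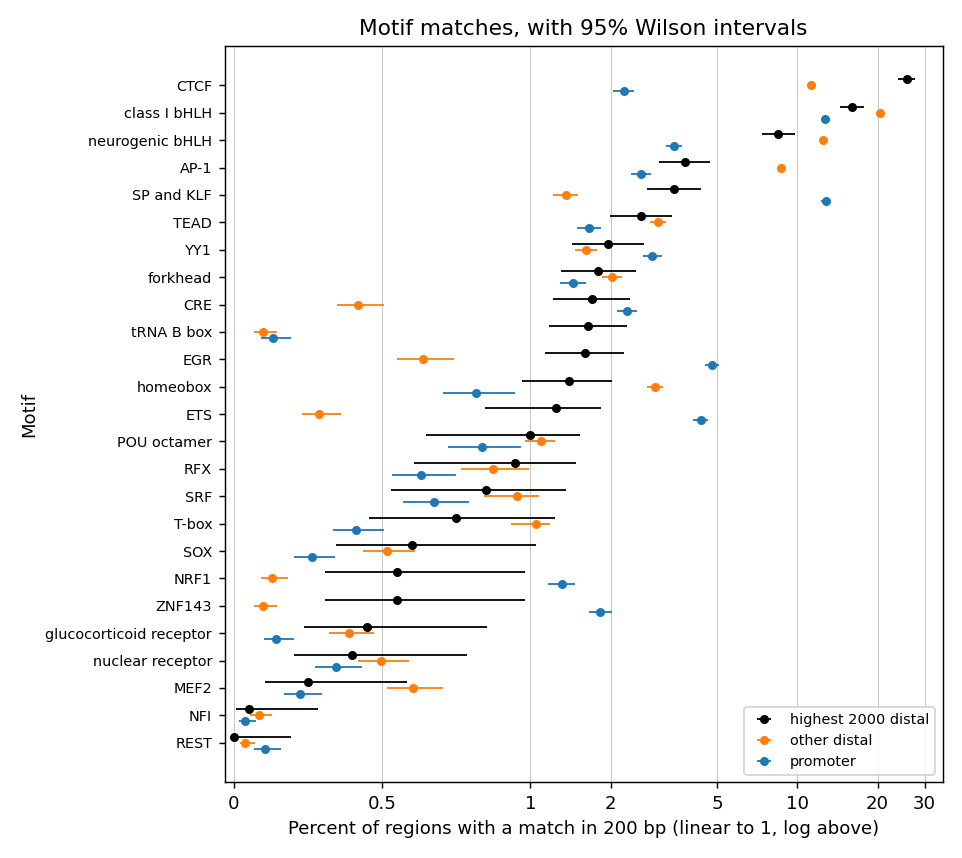
Percent of regions with a match to each of 25 motifs in 200 bp (x axis, linear up to 1 and log above), for the 2000 members (black), the other distal regions (orange) and promoter regions (blue), with 95% Wilson intervals as bars. CTCF stands at 25.8%, 11.3% and 2.24%, and CRE, EGR, ETS and NRF1 in the members lie between the other distal regions and promoters. For CRE the intervals of members and promoters overlap.

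Down the whole height order of distal regions, taken in bins of 2000, these shares changed gradually for CTCF and abruptly for the CpG-rich class. A CTCF match was found in 25.8% of the members, in 25.4% of the next 2000 regions and in 21.0% of the 2000 after those, and in 2.52% of the lowest 1984. CpG-rich regions made up 25.4% of the members, 12.2% of the next 2000 and 4.64% of the lowest bin. Regions over tRNA genes made up 3.95%, then 1.15%, and none of the 3 lowest bins. AP-1 went the other way, from 3.80% through 5.75% to 10.1% in the lowest bin, and CAGCTG from 16.1% to 22.1%. CAGATGG was at 8.50% in the members, 11.6% in the next bin and 11.8% in the lowest.

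**Figure D3:**
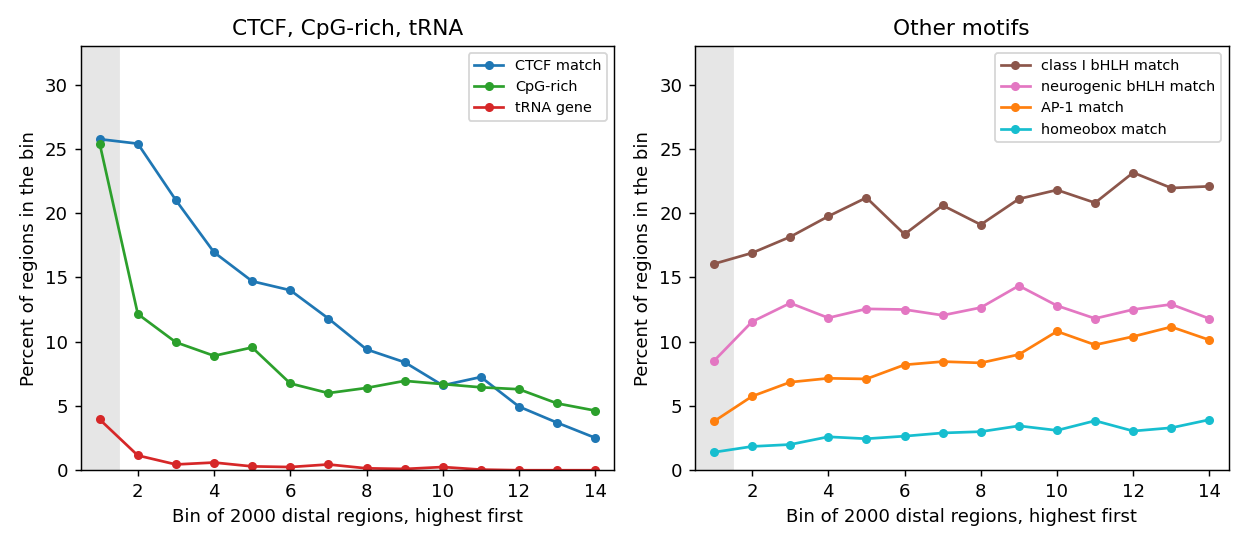
Percent of distal regions with each feature (y axis) in 14 bins of 2000 regions from highest to lowest (x axis, the last bin with 1984), with the members shaded. The left panel shows the CTCF, CpG-rich and tRNA shares, highest in the members at 25.8%, 25.4% and 3.95%, and the right panel shows AP-1, bHLH and homeobox matches, lowest in the members.

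Within the members the order also mattered. In the highest 200, with median heights of 9.52 and 4.85, 52.0% were CpG-rich, 14.5% had a CTCF match and 12.5% lay over a tRNA gene. In the lowest 200, with median heights of 4.12 and 2.08, the shares were 17%, 27.0% and 0.5%. CRE matches were found in 4% of the highest 200 and none of the lowest 200. AP-1 matches stood at 6.50% in the highest 200 and between 2.00% and 4.50% in the other 9 bins. When each member was given 1 class, in the order tRNA gene, CTCF match, CpG-rich and RefSeq start, 932 (46.6%) had none of these, against 77.7% of the other distal regions.

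**Figure D4:**
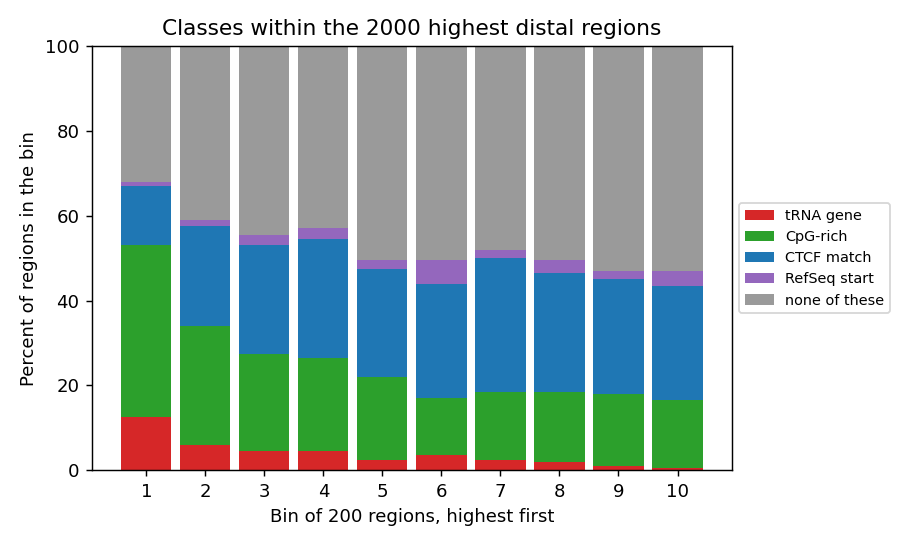
Percent of members in each class (stacked bars, y axis) in 10 bins of 200 members from highest to lowest (x axis), with each member counted once. CpG-rich regions make up 40.5% of the highest bin and 16% of the lowest, and regions over tRNA genes 12.5% and 0.5%.

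The 932 members outside these classes had median heights of 5.19 in replicate 1 and 2.54 in replicate 2, close to those of all members. With 1 mismatch allowed, 482 of them (51.7%, interval 48.5% to 54.9%) matched CTCF, against 21.7% (21.1% to 22.2%) of the 20186 other distal regions outside the classes. A full match to at least 1 of the other 24 motifs was found in 40.5%, against 49.6%. AP-1 stood at 4.83% and CAGATGG at 9.12% in these members, against 9.93% and 13.1%.

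Members lay closer to transcript starts than the other distal regions did, but less often inside introns and more often between genes. The median distance to the nearest GENCODE start was 7415 bp, against 11650 bp, although the rule fixed only the lower limit of 1 kb. Within 2 kb of a start lay 14.7% of members and 10.2% of the others, and over 50 kb away lay 4.55% and 12.8%. Intergenic members numbered 1062 (53.1%, interval 50.9% to 55.3%), against 46.2% (45.6% to 46.8%). Intronic members numbered 763 (38.2%, 36.0% to 40.3%), against 46.6% (46.0% to 47.2%). Exonic members numbered 175 (8.75%), against 7.22%, with 63 in coding sequence, 61 in untranslated parts and 51 in other exons. A RefSeq start lay within 1 kb of 153 members (7.65%), against 5.04%. The median width was 200 bp for members and 220 bp for the others. Members were spread over all chromosomes, from 5.51% of the distal regions of chromosome 14 to 9.31% of those of chromosome 7 among the autosomes. Of the 2000 members 275 (13.8%) lay within 10 kb of another member and 634 (31.7%) within 50 kb. These shares were not computed for an equal number of other distal regions, so no clustering is read from them.

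The very highest members were often sequence that occurs more than once in the genome, where a read cannot be placed with certainty. A region was called mostly multicopy when over 50% of its 32-base words recur in chromosomes 1 to 19, X and Y. The highest was chr9:123461881-123462140, in an untranslated exon part of Lars2, a mitochondrial leucyl-tRNA synthetase gene, with heights of 53.8 and 31.7 and 63.1% of words recurring. The next was chr3:5860361-5860530, intergenic and 109640 bp from the nearest protein-coding start, with 40.7 and 32.9 and a median of 7 copies per word. An intronic region of the cytokine receptor gene Il31ra (chr13:112578161-112578320) followed with 49.6 and 24.6, then one 21564 bp from Igf2bp3 (chr6:49236421-49236620) with 49.5 and 22.1. In these 4 regions between 63.1% and 100% of words recurred. Next in order, a region in an untranslated exon part of the ceramide synthase gene Cers5 (chr15:99735661-99736060) had no recurring word and heights of 21.3 and 23.1. In all 26 members (1.30%, interval 0.889% to 1.90%) were mostly multicopy, against 0.870% (0.764% to 0.990%) of the other distal regions. In the highest 200 the share was 6.50%. A single member lay on chromosome Y although both animals are female (chr Y, heights 9.50 and 3.98, with 87.7% of words recurring). Chromosome X held 26 members, 1 of them a region in Mid1 at chrX:169997921-169998420 with all words recurring. What part copies played in these heights was not tested.

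All 2000 members held a footprint in both mice, against 95.2% of the other distal regions and 90.0% of promoter regions. By the same limit of 3 counts, a share of members without one of up to 0.150% is allowed in each library. Footprints come from the same cuts as the heights and are not independent of the choice. Members held 4.33 ± 1.65 footprints in replicate 1 and 4.09 ± 1.73 in replicate 2 (SD over regions), against 3.22 ± 1.77 and 3.07 ± 1.81 in the other distal regions. Footprints covered a median of 91.0 bases of a member in replicate 1 and 70.0 in replicate 2, against 43.0 and 37.0. By class, CpG-rich members held the most, a mean of 5.16 and 4.98, and members with a CTCF match the fewest, 3.95 and 3.61. In the 1000 bp around the centre, a median of 513.5 and 546.5 bases stood in the deposited list of positions with a false discovery rate under 0.05, against 355 and 407 in the other distal regions.

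The height ratio between the animals is given as a description, since the same heights chose the members. Ratios of replicate 2 over replicate 1 were taken on a log2 scale and centred on the median of all shared regions, because the deposited heights carry factors that are not stated. Before centring the median ratio was 0.749 over all shared regions and 0.492 over the members. After centring, the members had a median of -0.61 (SD over regions 0.42), the other distal regions 0.05 and promoter regions -0.01. The members' value depended on which library did the ranking, at -0.33 when regions were ranked without replicate 1 and -0.79 when ranked without replicate 2. In 1770 of 2000 members (88.5%) the ratio lay below 0. The 8605 promoter regions at least as high as the lowest member in both mice had a median of -0.10. In the highest of 10 equal height groups of all shared regions the median was -0.59 for 534 distal regions and -0.09 for 4355 promoter regions, and in the lowest it was 0.21 and 0.13. A ratio more than 2-fold below the median was found in 3.54% of all shared regions and in 286 members (14.3%). One more than 2-fold above it was found in 0.736% of all shared regions and in 1 member. These shares come from the heights that chose the members, and nothing is read from them.

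By class, the centred ratio was lowest in members with a CTCF match, at -0.74, where it lay below 0 in 505 of 514. It was -0.52 over tRNA genes, -0.62 in members of no class and -0.28 in CpG-rich members. The order outside the members differed for regions of no class. Other distal regions had -0.54 with a CTCF match, -0.50 over tRNA genes, 0.00 when CpG-rich and 0.12 in no class. Promoter regions had -0.53 with a CTCF match, -0.54 over tRNA genes, -0.04 when CpG-rich and 0.09 in no class. The 5 members of lowest ratio ran from -1.56 to -1.48. The lowest, at chr14:36864201-36864360 and 22079 bp from Ccser2, had heights of 6.71 and 1.71. The highest was in an intron of Aida (chr1:183299161-183299480), with a centred ratio of 1.17 and heights of 3.95 and 6.64. With 1 library per animal, a difference between the animals and a difference between the libraries cannot be told apart.

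**Figure D5:**
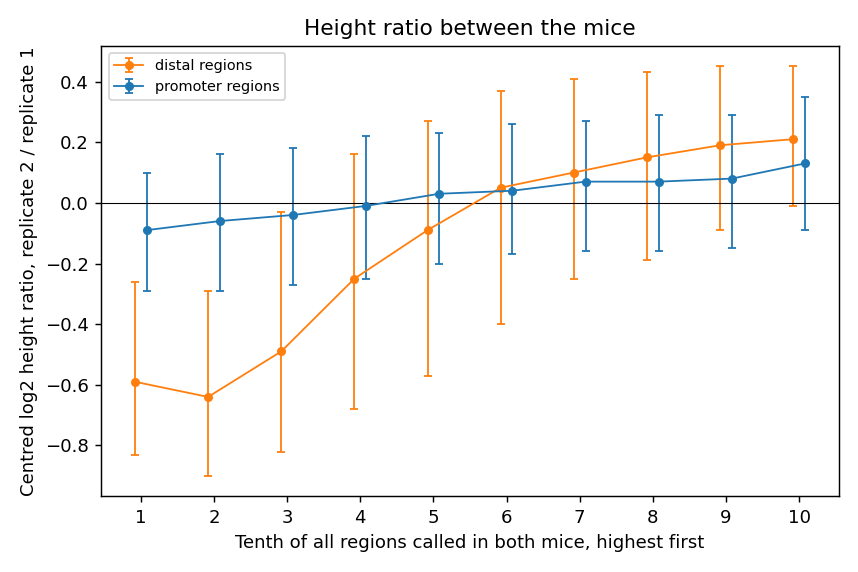
Centred log2 ratio of heights, replicate 2 over replicate 1 (y axis), in 10 equal groups of all regions called in both mice from highest to lowest (x axis), as medians with bars from the lower to the upper quartile, for distal (orange) and promoter (blue) regions. The distal median is -0.59 in the highest group and 0.21 in the lowest, while the promoter median runs from -0.09 to 0.13.

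Members were nearest to the starts of 1684 protein-coding genes, of which 1438 had 1 member and 14 had at least 4. Ptma, whose product is an abundant acidic nuclear protein, and Klrb1c, a receptor gene of natural killer cells, had 6 each. The 6 regions near Ptma lay 1325 to 39135 bp from its start, with heights of 4.34 to 14.9 in replicate 1 and 3.34 to 8.87 in replicate 2, and included 4 CpG-rich regions and 2 with a CTCF match. Of the 6 near Klrb1c, which were all of its distal regions, 5 were CpG-rich and none had a CTCF match, with heights of 4.10 to 10.8 and 2.11 to 4.86. Cfap126, a cilium gene, and Ubash3b, a phosphatase gene, had 5 each, and 4 of those near Cfap126 lay over tRNA genes. All 4 members near Hfe2 and all 4 near Trim7 lay over tRNA genes too, as did 3 of 4 near Trim27. The remaining genes with the most members, 4 each, were 1700001O22Rik, Bahcc1 and Lrrc74a. Nearest means position only, since the target of a distal region was not measured.

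Genes of cortical cell types were checked in 12 lists of 181 genes. Distal regions called in both mice were nearest to 13 of 15 excitatory neuron, 10 of 16 interneuron, 10 of 12 astrocyte, 14 of 16 oligodendrocyte lineage, 9 of 13 microglial and 10 of 14 vessel and meninges genes. They were nearest to 18 of 20 immediate early, 14 of 17 synaptic, 9 of 16 housekeeping, 6 of 14 liver, 7 of 14 skeletal muscle and 5 of 14 blood genes. The share of all protein-coding genes nearest to such a region was not computed, so no difference between lists is read from these counts. Members were few near the genes of the 12 lists, 42 in all. For reference, 7.15% of all distal regions are members. Near excitatory neuron genes 4 of 67 distal regions were members (5.97%), near interneuron genes 1 of 34 (2.94%), near synaptic genes 4 of 72 (5.56%), near astrocyte genes 4 of 40 (10.0%), near oligodendrocyte lineage genes 5 of 50 (10.0%) and near microglial genes 2 of 15 (13.3%). The lists of vessel and meninges, housekeeping, blood, liver and skeletal muscle genes had 2 of 41, 2 of 22, 1 of 13, 2 of 18 and 1 of 16. These counts have no test, and no list is called apart from the others by them.

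Immediate early genes, which neurons switch on after firing, had 14 members among 77 distal regions (18.2%), near 11 of their 20 genes. The highest near the orphan nuclear receptor gene Nr4a1 lay 13388 bp from its start (chr15:101240781-101240980, intergenic) with heights of 7.28 and 3.49. The highest near Fos, an AP-1 subunit, lay 11180 bp away (chr12:85485941-85486240, intergenic and CpG-rich) with 6.30 and 3.93. The highest near Npas4, an activity-induced bHLH factor, lay 11615 bp from its nearest GENCODE start (chr19:5001761-5002100). A RefSeq start of Npas4, not used by the rule, lay 1508 bp away. Its heights were 3.50 and 4.03, higher in replicate 2. Each of the 3 genes had 2 members.

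Single members stood near cell type genes. Slc17a7, the vesicular glutamate transporter of excitatory neurons, had one 1688 bp from its start (chr7:45162081-45162440) with heights of 7.36 and 4.52, while those near the cortical factors Bcl11b and Neurod2 had 5.81 and 2.11 and 3.51 and 2.89. Sst, a neuropeptide gene of interneurons, had one at 4.49 and 2.06. Aldh1l1, an astrocyte folate enzyme, had 3, the highest in an intron with a CTCF match (6.09 and 2.42), and Gja1, the astrocyte connexin, had 1 (4.15 and 2.03). The myelin genes Mobp, Mog and Opalin had 1 each at 7.27 and 3.01, 5.40 and 4.10, and 6.65 and 2.44. Spi1, the myeloid factor of microglia, had 1 at 5.18 and 2.52. Among synaptic genes Shank1, Dlg4 and Grin2b had 1 each, at 6.69 and 4, 4.91 and 4.46, and 5.11 and 3.10. Genes of other tissues had members too, with 7.86 and 3.23 near the liver factor Hnf4a and 6.31 and 3.30 near the erythroid factor Klf1.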

How the data were processed

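DNase-seq libraries of left cerebral cortex from 2 female mice form 1 group. Per the deposited read-me text, mm10 was the build, and each library had its own peaks, footprints and per-base false discovery rates. Which aligner, callers and height factor were used is not given in the sources used here. Heights are signal values as deposited, and the deposited footprint and cut-rate values are read as a p-value threshold or rate. Of these only positions were used. Peaks overlapping by at least 1 bp were merged, with the highest peak per region and library kept. Sequence, GENCODE M21 starts and RefSeq annotation on GRCm38 gave positions, motifs and tRNA genes (Python 3.11.15, numpy 2.4.6, pandas 2.3.3, scipy 1.17.1). With 1 group no test between groups was made. Functions for merging, ranking, motif search and word copies were tested on simulated data, and all 34 quantities were recovered.

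The members and lists were chosen with earlier results of these data known. Named regions are the 10 of best rank, 3 to each side of the limit, the 5 of lowest and of highest height ratio, and the highest non-multicopy member per motif (3 for CTCF). The first region over a tRNA gene and the one on chromosome Y were named after their values were seen. Named genes are the 10 nearest to most members and up to 3 per list, of which some are not reported here. Chromosome 18 was left out of named motif regions and printed sequences. Alternatives changed the start distance, annotation, number of members, libraries, list, overlap, height rule, repeat filter and motif window.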

Additional observations from a re-analysis of the deposited data

How the results depend on the processing

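Of 110 values under alternative settings, 78 stayed inside the interval of the reported value. For members kept this interval was a chosen 1.5-fold band, 1333 to 3000. Some values had no room to move: the highest 4000 must keep all 2000 members. The footprint share was 100% under every setting. The count of 78 is therefore not a measure of stability. For the values that left their interval, the cause was not tested. With regions over 500 bp from a start, a CTCF match stood at 23.85%, the CpG-rich share at 31.6% and the median distance at 5756 bp. Over 2 kb the CpG-rich share was 21.55% and the distance 9392 bp. Over 5 kb, 1234 members were kept, with CTCF at 28.1%, CpG-rich at 17.6%, distance 14072 bp and the SD of the height ratio at 0.450. With protein-coding starts only, intronic stood at 35.45%, CpG-rich at 31.35% and distance at 5824 bp. The highest 1000 (1000 kept) had CTCF at 23.4%, intronic 34.9%, multicopy 2.20% and CpG-rich 32.3%, and the highest 4000 had intronic 40.5%, CpG-rich 18.8% and an SD of 0.464. Without RefSeq starts and tRNA genes, added after the data were seen, CTCF was 27.75% and CpG-rich 20.95%. Leaving out mostly multicopy regions set that share to 0.00%, and a limit of 10% of words gave 6.4%. A stricter CpG island rule gave 11.6%, and 1 mismatch in CTCF 56.8%.

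Leaving out 1 replicate gave 1556 to 1625 members kept, CTCF at 18.1% (replicate 2 alone) to 30.6% (replicate 1 alone), CpG-rich at 21.05% to 26.75% and an SD of 0.389 to 0.506. The CTCF share of the other distal regions was then 11.9% and 10.9%. The longer lists, a 50 bp overlap and mean heights moved none of the 8 values outside its interval. No paired analysis was possible because the labels give 1 group. Read depth is unknown, so the limit it sets on each height could not be given.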

Other observations

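The highest members with matches to some of the rarer motifs are listed here by position. A member in an intron of the circadian gene Per1 (chr11:69096981-69097280), 1817 bp from its start, held CRE, TEAD, CAGCTG and glucocorticoid receptor matches, with heights of 6.88 in replicate 1 and 5.65 in replicate 2. The highest member with an SRF match was intergenic, 72655 bp from Irf2bp2 (chr8:126666501-126666780), with 12.8 and 7.70. The highest with a YY1 match lay 10717 bp from the nuclear factor gene Nfix (chr8:84810941-84811180), with 9.91 and 5.00. The highest with an octamer match of POU factors had 9.91 and 5.46 and lay 96860 bp from Tmem161b. The highest with a MEF2 match, in an intron of Zdhhc8, had 4.83 and 2.75. The member near Slc17a7 held the highest T-box match, and the highest TEAD match was in an intron of the bHLH gene Atoh8, with 9.82 and 5.92. The highest ETS match shared its region near Chd2 with a CTCF match.

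For MEF2, SOX, RFX, forkhead and TEAD matches, the intervals of members overlapped those of the other distal regions. MEF2 was matched in 0.250% of members (0.107% to 0.584%) against 0.604% (0.517% to 0.706%). The member share of MEF2 rests on 5 regions, so the overlap does not show that these shares are equal. SOX stood at 0.6% in members against 0.516%, and RFX at 0.95% against 0.874%. Forkhead stood at 1.80% against 2.02%, and TEAD at 2.60% against 2.998%.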
